A study of Homo sapiens with 3 samples.

Results

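The genes described here encode integrins and the proteins that join them to the actin cytoskeleton and to signalling at focal adhesions. The list named 37 genes, 18 integrin subunits and 19 cytoplasmic adhesion proteins or co-receptors, grouped by known function. The list was drawn up with earlier results of these data known. On the array, 35 of the 37 had a probe set annotated with that gene symbol alone, out of 19775 genes so annotated. Each gene was read by its probe set with the highest mean log2 signal over the 3 arrays. Of the 35 genes, 28 had a mean signal at or above the floor of 5.93 (log2), the pooled median of all probe sets, and are called measured. Measured genes numbered 11800 in all.

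Total RNA came from 3 cultures labelled HepG2, which is a cell line from a human liver tumour. The cultures had been stably transfected with an Hsp27 ORF vector, with an Hsp27 shRNA vector or with a control vector, and grown in DMEM with fetal bovine serum. Sample titles add that the ORF culture carried an IRES2 vector and the control an EGFP vector. There was 1 array per vector, so no difference below has a replicate check, and none carries a p-value. The labels do not say whether a culture was 1 clone or a pool, so clone, culture and vector cannot be told apart.

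HSPB1, the gene of Hsp27, had log2 signals of 13.11, 13.03 and 13.25 on the arrays labelled ORF, shRNA and control. The array labelled ORF was thus not above the one labelled control. Every direction below rests on the labels. Markers of hepatocytes were low: 1 of 10 was measured, and the highest reading of any of them was 6.51. Of the epithelial markers, 4 of 6 (KRT7, KRT8, KRT18 and EPCAM) were at or above the pooled 75th percentile of 8.63 on each array. CDH1 and KRT19 were below the floor on average. Of the fibroblast markers, 4 of 7 were measured and 3 (LUM, COL1A1 and DCN) were at or above that percentile on each array, LUM with readings up to 13.35. COL1A2, PDGFRB and THY1 were below the floor on average. The platelet markers gave 0 of 4 measured. Leukocyte markers gave 2 of 5 measured and 0 at that percentile on each array, with summed linear signals of 373.6 for ORF, 341.2 for shRNA and 203.2 for control. PTPRC, the defining leukocyte gene, read at most 4.18.

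Integrins are receptors made of an alpha and a beta subunit, and the pair decides which matrix protein is bound. Talins and kindlins bind the beta tail and switch the receptor to its active state. ILK with PINCH and parvin links it to actin, while the kinases FAK and SRC with the scaffolds paxillin and p130Cas pass the signal on. In hepatocytes ITGA1 with ITGB1 is a main pair, and other pairs are known to appear in liver tumours.

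ITGB8 was the member with the largest difference from control. It encodes the beta subunit that pairs with ITGAV and is known for binding and activating latent TGF-beta. Its probe set had a linear signal of 227.4 with ORF, 315.4 with shRNA and 85.5 with control, naming each array by its label. The log2 signals were 7.83, 8.30 and 6.42 in the same order, all above the floor and below the 75th percentile. Both Hsp27 vectors thus lay above the control, although one was meant to raise Hsp27 and the other to lower it.

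Relative to control, ITGB8 was 2.66-fold higher with ORF (log2 ratio 1.41, probe-set noise SD 0.31). With shRNA it was 3.69-fold higher than with control (log2 ratio 1.88, noise SD 0.35). This noise SD is the spread between probe sets of 1 gene at like signal, and leaves out all variation between cultures. Among 11800 measured genes, ITGB8 had the 25th highest ratio of ORF over control and the 3rd highest of shRNA over control. Both ratios use the same control array, so they are not separate observations. The summed leukocyte marker signal above, which includes markers below the floor, was also lowest on the control array. Other marker sums had different orders. The fibroblast sum was 10416.4 with ORF, 12918.6 with shRNA and 12466.2 with control. The platelet sum, with 0 of 4 markers measured, was 89.2, 91.6 and 88.0 in the same order. The epithelial sum was highest with control, at 36342.8 against 29145.1 with ORF and 30296.4 with shRNA. Of its 4 measured markers, KRT8 and KRT18 were highest with control, KRT7 was highest with shRNA and EPCAM was lowest with control. The hepatocyte sum was also highest with control, at 388.1 against 344.4 with ORF and 324.2 with shRNA. Only 1 of its 10 markers, TF, was measured, so this sum too is made mostly of markers below the floor. The part of any marker sum in the ITGB8 difference was not tested. Between ORF and shRNA the log2 ratio was −0.47 (noise SD 0.34), within 1.5-fold.

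The other 4 probe sets of ITGB8 were below the floor on every array and entered no count. Of these, 3 read between 4.91 and 5.65 on the arrays labelled ORF and shRNA and between 3.02 and 3.28 on the array labelled control. These weak signals were higher with both vectors. The 4th read 3.94 with ORF, 1.28 with shRNA and 1.54 with control, so it was highest with ORF. Because these 4 were set to the floor, the median ratio over all 5 probe sets was 0 in both comparisons with control. Below the floor, probe sets of other members differed as much in either direction. A probe set of ITGA11 read 5.37 with ORF, 4.91 with shRNA and 2.69 with control, and 1 of ITGA4 read 0.00, 0.76 and 3.39. The weak ITGB8 readings thus add little to the probe set used.

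**Figure D1:**
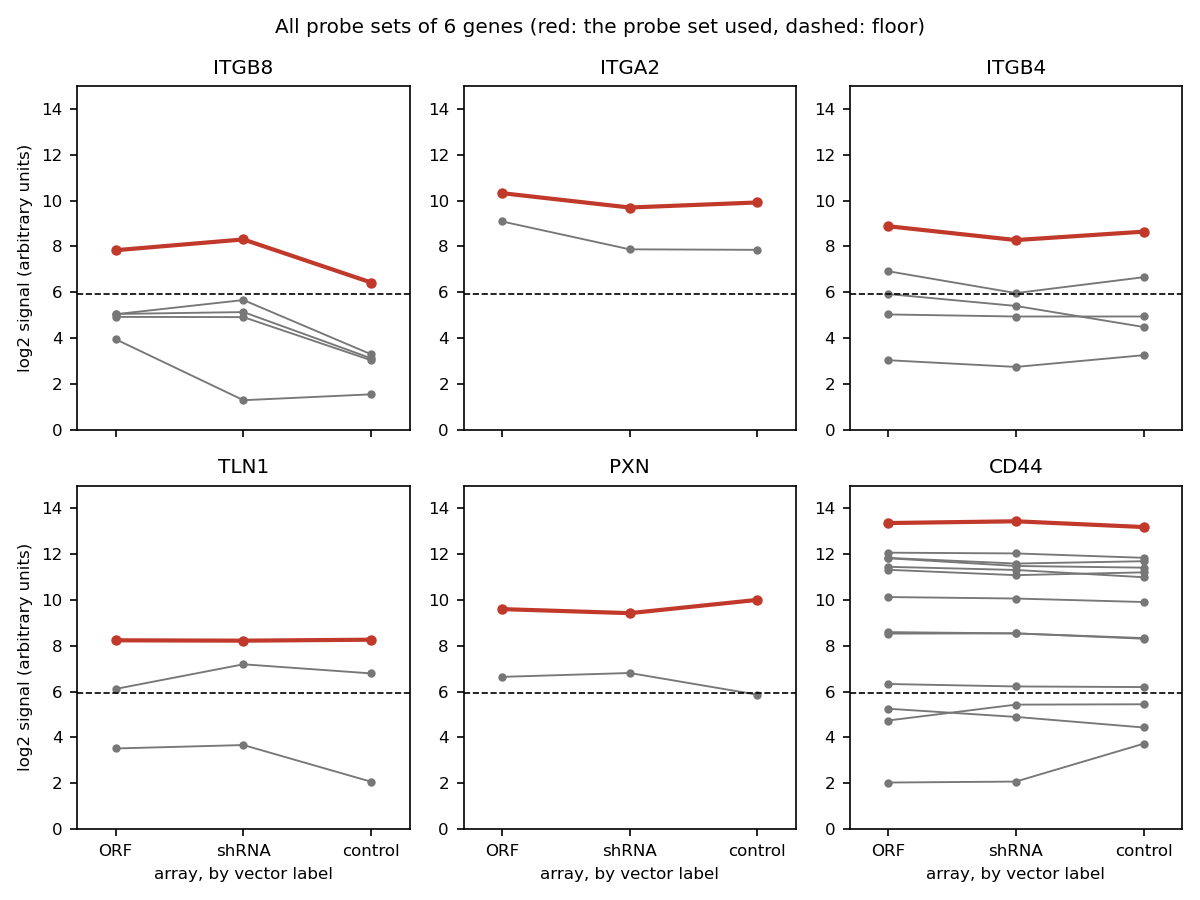
Log2 signal (y axis, arbitrary units) of every probe set annotated with 1 symbol for ITGB8, ITGA2, ITGB4, TLN1, PXN and CD44, on the arrays labelled ORF, shRNA and control (x axis). Red marks the probe set used, grey the others and the dashed line the floor of 5.93. The red line of ITGB8 stands lowest at control, at 6.42, while both probe sets of ITGA2 stand highest at ORF.

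The start regions of ITGB8 and ITGA2 are shown because ITGB8 differed most from control and both probe sets of ITGA2 were highest with ORF. Each run covers 250 bases before the RefSeq start and 50 after it, 5′ to 3′ on the plus strand of GRCh38.p14. Capitals mark the Sp1 GC box, GGGCGG on either strand. The ITGB8 window is chr7:20330650-20330949 and the ITGA2 window is chr5:52989102-52989401.
ITGB8: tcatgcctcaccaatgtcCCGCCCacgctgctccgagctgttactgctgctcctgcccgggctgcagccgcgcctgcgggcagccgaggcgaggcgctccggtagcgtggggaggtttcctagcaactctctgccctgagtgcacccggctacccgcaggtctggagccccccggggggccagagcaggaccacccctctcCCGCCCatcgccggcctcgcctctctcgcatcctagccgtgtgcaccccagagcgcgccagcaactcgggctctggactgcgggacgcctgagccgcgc
ITGA2: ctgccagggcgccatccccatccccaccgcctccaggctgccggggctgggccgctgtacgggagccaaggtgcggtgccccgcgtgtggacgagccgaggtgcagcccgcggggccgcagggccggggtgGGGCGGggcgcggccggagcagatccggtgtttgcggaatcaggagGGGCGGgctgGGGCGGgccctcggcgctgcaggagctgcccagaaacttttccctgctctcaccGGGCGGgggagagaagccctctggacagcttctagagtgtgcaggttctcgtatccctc
The ITGB8 window holds 2 GC boxes, both on the reverse strand, and the ITGA2 window holds 4. Of 35116 such windows of all genes, 45.0% hold at least 1, as do 29 of 49 windows of the members (59.2%). Among other members past 1.5-fold between ORF and shRNA, ITGA10 and TLN2 have windows with no GC box. ITGB4 has no window. An AP-1 site (TGANTCA) is in 7.71% of all windows, a cyclic AMP response element (TGACGTCA) in 1.85%, a TEAD site (CATTCC) in 14.0% and an ETS core (CCGGAAGT) in 4.14%, counting both strands. None of these 4 is in the ITGB8 or the ITGA2 window, while the ITGA10 window holds 1 TEAD site. These matches are letters in a window and were not linked to any factor.

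Of 17 known integrin pairs among the members, 9 had both subunits at or above the floor on each of the 3 arrays. For 6 of them both subunits were also at or above the 75th percentile on each array. These were ITGB1 with ITGA1 or ITGA2 (collagen receptors), with ITGA6 (laminin), with ITGA5 (fibronectin) and with ITGAV, and ITGAV with ITGB5 (vitronectin). ITGA3 with ITGB1 and ITGA6 with ITGB4, both laminin receptors, and ITGAV with ITGB8 made up the 9. Probe sets differ in how they bind, so signals of different subunits were not ranked against each other, and RNA does not show that a pair is on the surface.

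In 6 of the other pairs 1 subunit was below the floor on at least 1 array. By the probe sets used, ITGA4, ITGA8 and ITGA11 read at most 3.05, 5.14 and 4.84, and ITGB3 at most 5.57. ITGA7, a laminin receptor subunit known from muscle, read 3.91 with ORF, 5.81 with shRNA and 6.19 with control. ITGA10, a collagen receptor subunit known from cartilage, read 6.74, 5.52 and 6.45 in the same order. ITGB7, the lymphocyte beta subunit, was above the floor with shRNA alone, at 6.28, against 3.91 with ORF and 3.53 with control. Its pair with ITGA4 had neither subunit above the floor on every array. ITGB6 has only probe sets that share a second symbol, LINC02478, so its pair with ITGAV was not assessed.

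**Figure D2:**
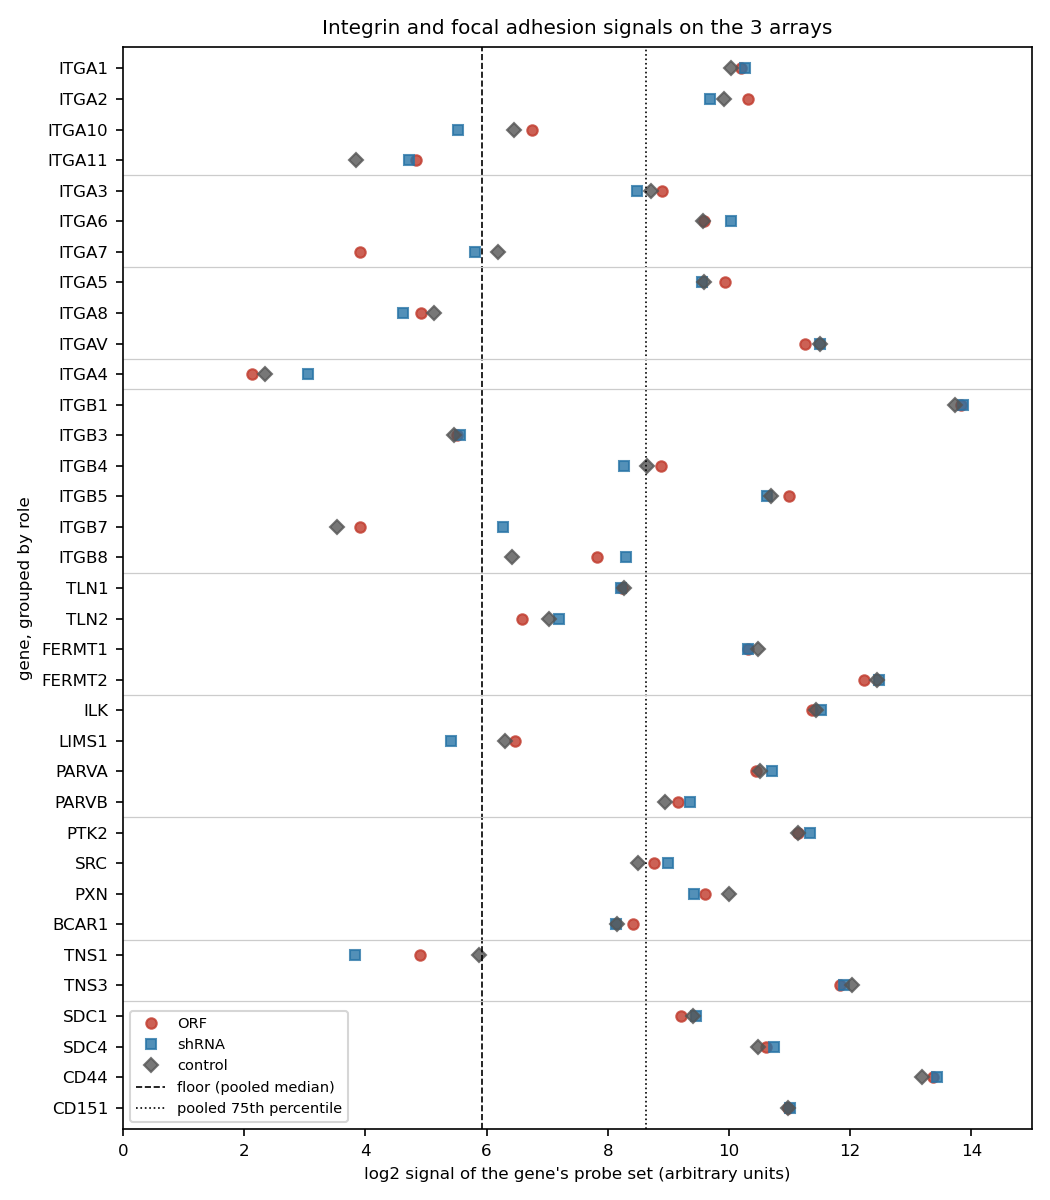
Log2 signal (x axis, arbitrary units) of 35 genes with a probe set (y axis, grouped by role) on the arrays labelled ORF (red circles), shRNA (blue squares) and control (grey diamonds). The dashed line is the floor of 5.93 and the dotted line the pooled 75th percentile of 8.63. The 3 symbols of most genes lie close together, and those of ITGB8 lie apart, all above the floor, at 7.83, 8.30 and 6.42. Those of ITGA7, ITGB7 and TNS1 spread more widely, with readings below the floor.

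For ORF against control, 1 of the 28 measured members was at least 1.5-fold higher, ITGB8, and 0 were at least 1.5-fold lower. Over all measured genes, 3.09% were that much higher and 2.78% that much lower, so the members' share of 3.57% higher was near the background. Their median log2 ratio was 0.12, against −0.0008 for all measured genes.

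The integrin subunits had a median of 0.24 by the probe sets used, with 10 of 11 above 0, against 49.6% of all measured genes. ITGA6 counted among the 10 at 0.02, but its second measured probe set gave −0.19, the median of both was −0.08, and the probe set used gave −0.0071 after scaling to equal medians. ITGA2, the alpha subunit of a collagen receptor, had a linear signal of 1280 with ORF and 966 with control, a log2 ratio of 0.41 (noise SD 0.15). Its second probe set read 9.09 with ORF and 7.85 with control, a log2 ratio of 1.24. Both probe sets were higher with ORF, by different amounts, and the median of the 2 ratios was 0.82.

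ITGA5, the fibronectin receptor subunit, read 9.93 with ORF and 9.60 with control (log2 ratio 0.33, noise SD 0.15, 1 probe set). ITGB5, which pairs with ITGAV, read 10.99 with ORF and 10.70 with control. All 4 of its probe sets were higher with ORF, by 0.29 to 0.48. ITGB1, the shared beta subunit, had ratios of 0.10 to 0.32 over 3 measured probe sets. ITGA1 had ratios of 0.04 to 0.16 over 3 probe sets. ITGA10 read 6.74 with ORF and 6.45 with control (log2 ratio 0.29, noise SD 0.41). For ITGB4 the ratios were 0.24 and 0.26, and that of ITGA3 was 0.18.

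By the probe sets used, ITGAV was the 1 measured subunit below 0. It read 11.26 with ORF and 11.51 with control, a log2 ratio of −0.24 (noise SD 0.12).

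The 17 measured cytoplasmic members and co-receptors had a median of −0.03 for ORF against control, and all were within 1.5-fold. By the probe sets used, the talins and kindlins were below 0 in 4 of 4, as were 5921 of all 11800 measured genes. TLN2, the talin known from muscle and brain, read 6.58 with ORF and 7.03 with control (log2 ratio −0.45, noise SD 0.39). FERMT2, kindlin 2, read 12.23 and 12.45 (−0.21, noise SD 0.10), and none of its 3 probe sets was above 0. FERMT1, the epithelial kindlin, had probe sets from −0.16 to 0.27, with a median of 0.15 that was above 0. TLN1, the talin of most cells, had a ratio of −0.03 by the probe set used and −0.68 by its other measured one.

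Paxillin, PXN, a docking scaffold of focal adhesions, read 9.60 with ORF and 10.01 with control (log2 ratio −0.40, noise SD 0.15). Its second, weaker probe set read 6.65 and 5.87 and gave 0.72 with the floor, the opposite sign. SRC had ratios of 0.27 and 0.16, and BCAR1, p130Cas, had 0.26 and 0.05. PTK2, focal adhesion kinase, had −0.003 by the probe set used and −0.05 to 0.33 over 4. The ILK gene had a ratio of −0.07. PARVA ranged from −0.68 to 0.16 over 7 probe sets and PARVB from −0.25 to 0.43 over 5 measured ones.

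CD44, the hyaluronan receptor, read 13.36 with ORF and 13.19 with control (log2 ratio 0.17, noise SD 0.080). All 10 of its measured probe sets were higher with ORF, by 0.11 to 0.45. SDC4, the syndecan of focal adhesions, had a ratio of 0.13, and SDC1 had probe sets at −0.19 and 0.19. CD151, a tetraspanin that binds laminin receptors, had 0.01. TNS3, a tensin that binds beta tails, had −0.20 (noise SD 0.10), and TNS1 was below the floor on every array.

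**Figure D3:**
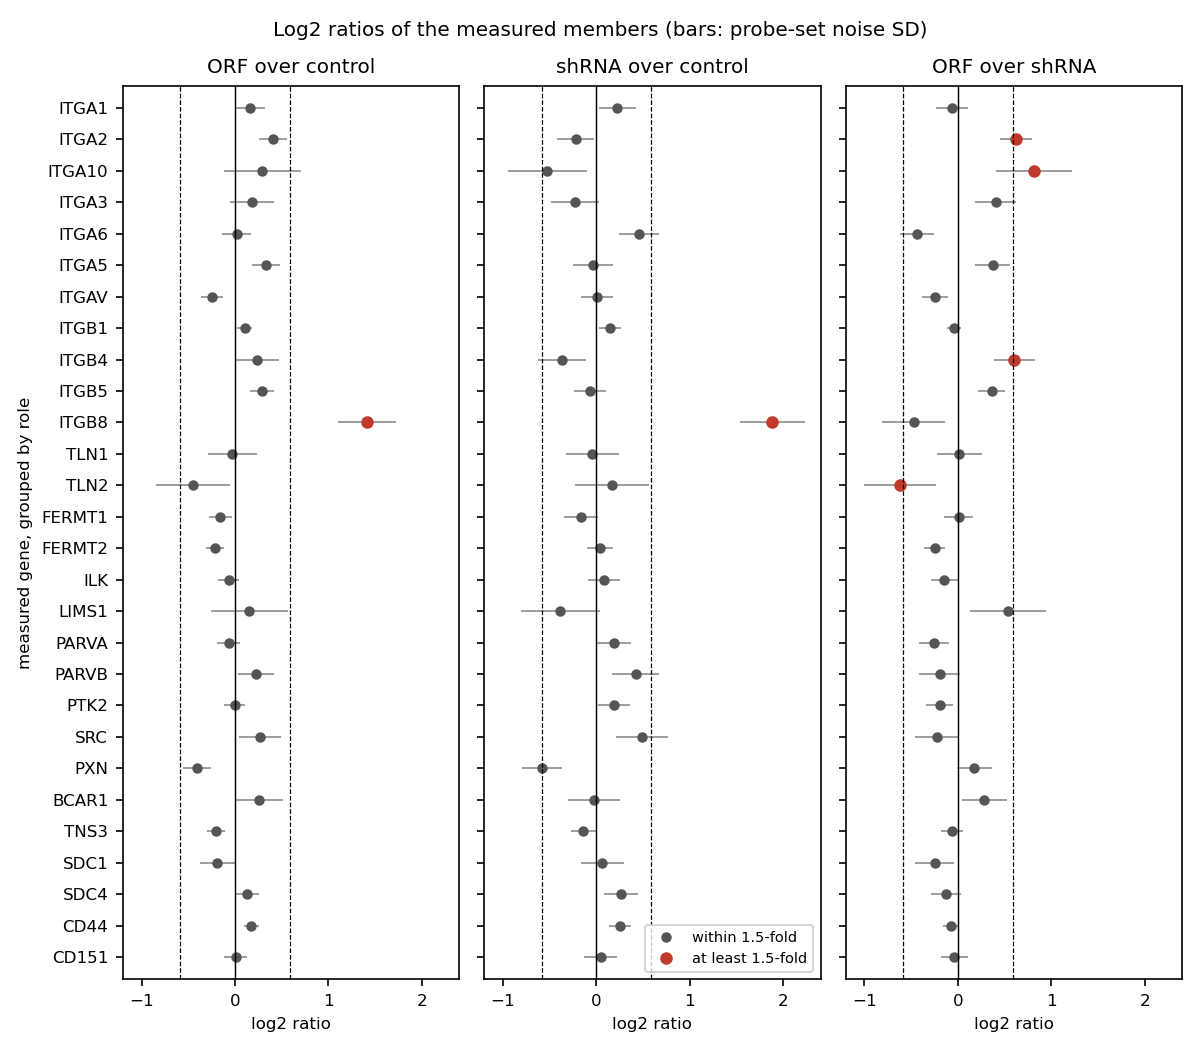
Log2 ratios (x axis) of the 28 measured members (y axis) for ORF over control, shRNA over control and ORF over shRNA. Horizontal bars are the probe-set noise SD and not a replicate error, dashed lines mark 1.5-fold and red points lie beyond them. ITGB8 stands alone in both panels against control, at 1.41 and 1.88.

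For shRNA against control, 1 of 28 members was again at least 1.5-fold higher, ITGB8, and 0 were lower. The background was 3.71% higher and 3.27% lower. The median of the members was 0.04, against −0.01 for all measured genes. Here the integrin subunits lay on both sides, with 5 of 11 above 0 and a median of −0.04. Among all measured genes 47.7% were above 0.

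ITGA6, a laminin receptor subunit, read 10.03 with shRNA and 9.57 with control (log2 ratio 0.46, noise SD 0.22), and its second probe set gave 0.13. ITGB4, its partner in hemidesmosomes, was on the other side. It read 8.27 with shRNA and 8.64 with control (−0.37, noise SD 0.26), and its second measured probe set gave −0.69. The ratio of ITGA2 was −0.22 by the probe set used and 0.02 by the other. ITGA3 gave −0.23 (noise SD 0.26).

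ITGA10 was below the floor with shRNA, so its ratio of −0.52 (noise SD 0.42) to control is set by the floor. ITGA5 and ITGAV had ratios of −0.04 and 0.00. ITGB5 had −0.07 by the probe set used, but its other 3 gave 0.33, 0.72 and −0.13, 1 of them past 1.5-fold, and the median of the 4 was 0.13. ITGA1 had 0.22, with −0.04 to 0.22 over its 3 probe sets, and ITGB1 had 0.14, with 0.14 to 0.24 over 3.

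PXN read 9.43 with shRNA and 10.01 with control, a log2 ratio of −0.58 (noise SD 0.22) that was just within 1.5-fold, and its second probe set gave 0.89. SRC read 8.99 with shRNA and 8.50 with control (0.49, noise SD 0.28), while its other measured probe set gave −0.02. PARVB, a parvin, gave 0.42 by the probe set used and −0.38 to 0.42 over 5 measured ones. The 4 co-receptors were above 0 by the probe sets used, at 0.05 to 0.26, while the second probe set of SDC1 gave −0.21. CD44 had 8 of 10 measured probe sets above 0, from −0.12 to 0.32.

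Signs differed between probe sets of 1 gene in many members. Of 18 members with more than 1 measured probe set, all probe sets lay on 1 side for 11 in ORF against control. The number was 3 in shRNA against control and 4 in ORF against shRNA. The same count was not made over all measured genes, so these numbers have no background to be read against.

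Set directly against each other, ORF and shRNA differed by at least 1.5-fold in 4 of 28 members, 3 higher and 1 lower with ORF. Over all measured genes 2.69% were that much higher and 2.75% that much lower. The members' median was −0.06, against 0.01 for all measured genes. The integrin subunits had a median of 0.36, with the middle 50% from −0.15 to 0.51 and 6 of 11 above 0. The cytoplasmic members and co-receptors had a median of −0.13, with 5 of 17 above 0, and among all measured genes 52.5% were above 0.

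ITGA2 had a linear signal of 1280 with ORF and 828 with shRNA, which is 1.54-fold higher (log2 ratio 0.63, noise SD 0.17). Its second probe set read 9.09 with ORF and 7.87 with shRNA, a ratio of 1.22. In both probe sets ITGA2 was thus highest on the array labelled ORF. ITGA1 lies beside ITGA2 on chromosome 5, with 1 protein-coding gene between them, and its ratio of ORF over shRNA was −0.06.

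ITGB4 was 1.52-fold higher with ORF than with shRNA (log2 ratio 0.60, noise SD 0.22), and its second measured probe set gave 0.95. Its partner ITGA6 was on the other side, at −0.44 (noise SD 0.19) and −0.32 by its 2 probe sets. The subunits of this pair thus differed in opposite directions on these arrays. ITGA10 was 1.76-fold higher with ORF (log2 ratio 0.82, noise SD 0.41), against a signal set to the floor for shRNA. TLN2 was 1.53-fold lower with ORF (−0.62, noise SD 0.38), by 1 measured probe set. After scaling to equal medians above the floor, ITGA2 and ITGB4 were within 1.5-fold, at 0.56 and 0.54. By the median over all probe sets, floored ones included, ITGB4 was at 0 and TLN2 at −0.06.

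Other subunits were within 1.5-fold between ORF and shRNA. ITGA3, ITGA5 and ITGB5 gave 0.41, 0.37 and 0.36 by the probe set used, and ITGAV gave −0.25. ITGB5 was less even, since its 4 probe sets ranged from −0.30 to 0.52. TLN1 gave 0.02 by the probe set used and −1.08 by its other measured one. LIMS1, the PINCH adaptor, gave 0.54 (noise SD 0.41), with its signal for shRNA below the floor.

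The other genes of adhesion came from 5 lists of 85 genes, of which 63 were measured. For ORF against control, 1 was at least 1.5-fold higher and 8 lower. For shRNA against control, 3 were higher and 1 lower, and for ORF against shRNA, 1 was higher and 9 were lower. Together 14.3%, 6.35% and 15.9% were past 1.5-fold, against 5.87%, 6.98% and 5.44% of all measured genes.

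Among 31 measured focal adhesion components outside the member list, 1 was higher and 4 were lower for ORF against control. SORBS2, an actin-linked adaptor, read 9.20 with ORF and 7.68 with control (log2 ratio 1.52, noise SD 0.26), and its 6 measured probe sets gave 0.69 to 1.52. LIMS2, the second PINCH gene, read 6.74 with ORF and 7.87 with control (−1.13, noise SD 0.31). CAV1, caveolin 1, read 12.07 and 12.79 in the same order (−0.71, noise SD 0.10), with −0.89 by its other probe set. NEDD9, a relative of BCAR1, and SORBS3, vinexin, gave −0.62 each, and their second measured probe sets were within 1.5-fold, at −0.54 and −0.25. For shRNA against control, 0 of the 31 were past 1.5-fold by the probe sets used. Other measured probe sets reached 0.75 for PDLIM5 and 0.79 for PDLIM7, with medians of 0.37 and 0.23. For ORF against shRNA, SORBS2 was higher (0.99) and LIMS2 (−1.12), TNS4 (−0.96), NEDD9 (−0.72) and SORBS3 (−0.59) were lower. ARHGEF7 gave −0.14 by the probe set used, but its 3 measured probe sets had a median of −0.67. In that comparison TNS4 and SORBS3 each rested on 1 of 2 measured probe sets, since the other gave −0.02 for TNS4 and 0.03 for SORBS3, and the medians of −0.49 and −0.28 were within 1.5-fold.

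By the probe sets used, 1 of 6 other syndecans and tetraspanins was past 1.5-fold for ORF against control and for ORF against shRNA. For shRNA against control it was 0 of 6. SDC2, a syndecan known from mesenchymal cells and liver, read 6.81 with ORF, 8.11 with shRNA and 7.92 with control. The log2 ratio of ORF was −1.11 to control (noise SD 0.31) and −1.30 to shRNA (noise SD 0.34). Both measured probe sets of SDC2 had that direction. CD82 gave −0.49 for ORF against control by the probe set used, but −0.81 by its other one, and the median was −0.65. For shRNA against control, SDC3 gave 0.01 by the probe set used and 0.96 by its other one.

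Among 18 measured integrin ligands, 0 were higher and 3 lower for ORF against control. LAMA4, a laminin chain bound by ITGA6 pairs, read 6.80 with ORF, 7.07 with shRNA and 8.16 with control. It was lower with both vectors, by log2 ratios of −1.36 (noise SD 0.35) with ORF and −1.09 (noise SD 0.38) with shRNA, which share the control array. NPNT, nephronectin, the ligand of ITGA8, gave −0.97 for ORF against control, but −0.05 by its second measured probe set. THBS1, thrombospondin 1, gave −0.71 there and −1.15 for ORF against shRNA, in each case the lowest of its 4 measured probe sets. These ranged from −0.71 to −0.04 against control, with a median of −0.23 that was within 1.5-fold, and from −1.15 to −0.36 against shRNA, with a median of −0.64.

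For shRNA against control, 3 ligands were higher and 1, LAMA4, was lower. FN1, fibronectin, read 11.26 with shRNA and 10.43 with control (0.84, noise SD 0.17), with 0.61 to 0.90 over 4 probe sets. COL1A1 and CCN1 gave 0.80 and 0.73, although COL1A1 ranged from 0.15 to 0.80 over its 3 probe sets. For ORF against shRNA, 4 ligands were lower and 0 higher: THBS1, CCN2 (−0.89), CCN1 (−0.81) and COL1A1 (−0.65). For COL1A1 the 3 probe sets ranged from −0.66 to 0.01.

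By the probe sets used, the 6 measured regulators of integrin activation were within 1.5-fold in the 3 comparisons, from −0.17 to 0.10. For RAP1A, the small GTPase that recruits talin to integrins, the other probe sets differed widely from the one used. Its 4 measured probe sets ranged from −0.13 to 1.87 for ORF against control (median 0.80), from −3.57 to 0.09 for shRNA against control (median −1.65) and from −0.06 to 5.15 for ORF against shRNA (median 2.52). The second measured probe set of ITGB1BP1, an inhibitor of integrin activation, gave −0.60 for shRNA against control. Of the other integrin subunits 2 of 8 were measured. ITGAE, the partner of ITGB7, read at least 12.64 on each array, and ITGB2, the leukocyte beta subunit, read at least 6.74. The remaining 6, among them ITGAL and ITGAX, were below the floor on average.

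**Figure D4:**
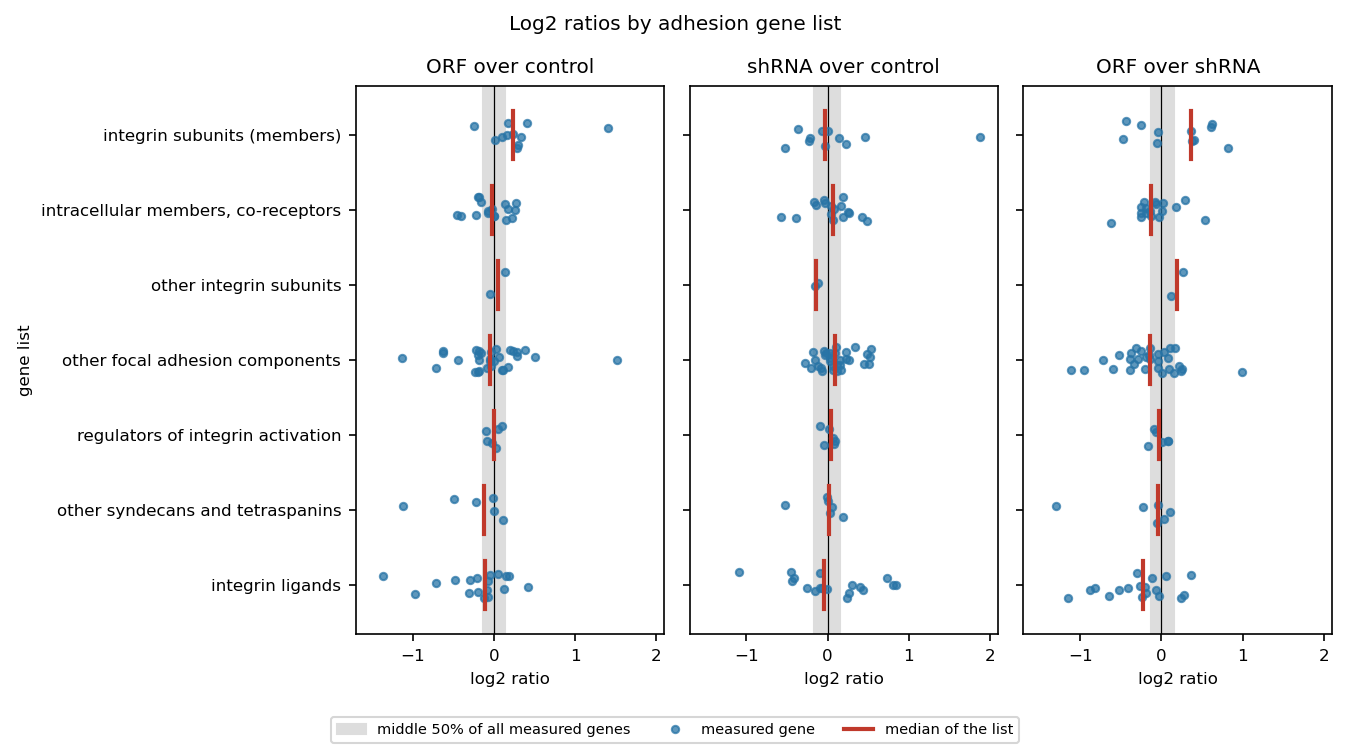
Log2 ratios (x axis) of measured adhesion genes by list (y axis) for ORF over control, shRNA over control and ORF over shRNA. Points are genes, spread vertically for view, red bars are medians of each list and grey bands hold the middle 50% of all measured genes. The median of the member integrin subunits stands at 0.24, −0.04 and 0.36.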

How the data were processed

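RNA from 3 cultures was hybridised to 3 arrays after 3′ in vitro transcription labelling, per the labels' protocols, with samples grouped by transfection label. The authors' deposited values are log2 signals for 54675 probe sets. MAS5 is named per the submitters' processing notes, with no further settings or detection calls given there. The log2 scale was read from the values: linear means without the top and bottom 2% were 499.9 on each array.

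GEO's platform annotation gave 41097 probe sets 1 gene symbol, 1801 several and 11777 none; 41043 of the first matched RefSeq (GRCh38.p14, used for names, gene order and start windows). CRK, a listed member, had no such probe set and was not analysed here. Arrays were scaled to equal trimmed means, and signals below the pooled median (60.8 linear) were set to it before ratios, so ratios near it understate differences. Genes at 1.5-fold or beyond were counted. Noise SD came from 6768 pairs of probe sets of 1 gene within 1 log2 unit in mean signal, in 20 bins. The number of arrays limits the precision. Members, lists, thresholds and tests were chosen with earlier results of these data known. All members were named, as were the genes of the other lists past 1.5-fold by the probe set used. Some other genes of those lists were also named. The procedure was run on simulated arrays with changes of 2-fold or more, added only to genes at or above the 75th percentile. Only ORF against control was read there. Changes near 1.5-fold, genes near the floor and false calls were not simulated. Alternatives covered scaling, floor, probe-set choice and threshold. Python 3.11.15 and pandas 2.3.3 were used.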

Additional observations from a re-analysis of the deposited data

How the results depend on the processing

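No paired analysis was possible because each group had 1 array. The medians of all measured genes moved by less than 0.1 under each scaling. ITGB8 stayed past 1.5-fold against control under quantile normalization, loess centring, equal medians, no floor, the 2-fold threshold and without _x_at and _s_at probe sets. With the floor at the 75th percentile it was no longer measured, so counts of higher members became 0 for ORF and 0 for shRNA against control. That floor also gave 1 higher and 0 lower for ORF against shRNA, a median of 0.019 for ORF against control and 6 of the 9 integrin pairs. With the median over all probe sets ITGB8 had a ratio of 0, since 4 of its 5 probe sets are below the floor; higher members then numbered 0 for shRNA against control, lower ones 0 for ORF against shRNA, and the medians were 0.041 for ORF against control and 0 for ORF against shRNA. With the median over measured probe sets, chosen after seeing the data, 2 members were higher for ORF against control (ITGA2 and ITGB8) and the median for shRNA against control was 0.10. Without _x_at and _s_at probe sets 1 member (TLN1) was lower for ORF against control and 2 for ORF against shRNA. Loess centring gave 1 lower member for shRNA against control (ITGA10), and no floor gave 2 (ITGA10 and LIMS1). For ORF against shRNA, equal medians left 1 higher member (ITGA10) with a median of −0.13, and at 2-fold 0 were higher and 0 lower. Counting members above the floor on at least 1 array gave a median of 0.061 for ORF against control. Single-member ratios were set against their main values under each setting where the member was still measured, 639 comparisons in all. Of these, 586 moved by less than their noise SD and 53 by more. The 586 include settings that cannot change a given ratio, so their share does not measure robustness. Where not stated, the cause was not tested.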

Other observations

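Probe sets that carry several gene symbols were left out of the comparisons. For LIMS1, the PINCH adaptor that acts with ILK, 2 such probe sets shared with LIMS4 or with LIMS3 and LIMS4 were well above the 75th percentile. One read 11.68 with ORF, 11.34 with shRNA and 11.46 with control. The other read 13.20, 13.14 and 13.12 in the same order. The LIMS1 probe set used above read at most 6.47, so the ratios given for LIMS1 rest on a weak signal, and the brighter probe sets cannot be assigned to 1 gene. The 4 probe sets shared by ITGB6 and LINC02478 read at most 5.34, all below the floor.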
